A study of Mus musculus with 16 samples.

Results

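The footprint and input libraries of cold-exposed fat labelled as a Mettl3 knockout were described here, 4 of the 16 libraries of the series. Genes were ranked by the ratio of footprints to input, the log2 of footprint RPKM + 1 over input RPKM + 1, averaged over 2 replicates. Of the 17883 genes in the matrix, the 7557 with at least 5 RPKM in both input libraries entered the ranking. RPKM is a read number scaled to the length given for a gene and to the depth of the library. Just inside the 5 RPKM limit lay Zfp800, with a lower input value of 5.002 RPKM, and Nol12, with 5.003. Just outside lay Spast and Slc17a5, at 4.9999 and 4.9994.

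All libraries came from adipose tissue of C57BL/6 mice aged 8 weeks, and the mice of the cold groups were housed singly at 4 °C for 7 days. Another group, labelled WT RT and untreated, has the WT genotype and entered only the model for m6A, as part of its estimate of the spread. The group labelled cKO had the genotype METTL3 flox/flox Adipoq-Cre +/-, and the comparison group, labelled WT, carried METTL3 flox/flox without Cre. The Adipoq promoter drives Cre in adipocytes, so other cells of the tissue keep Mettl3. Input is total RNA, footprints are ribosome-protected fragments collected by ultracentrifugation, and m6A libraries were captured with an antibody against N6-methyladenosine. Nothing in the labels ties a replicate to an animal of its own, and p-values therefore cover only the variation among the libraries at hand, which may be technical.

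As background, a ribosome on an mRNA shields a short stretch from nuclease. Footprints counted over the coding sequence and divided by the amount of mRNA serve as a measure of ribosome load per mRNA, often called translational efficiency. METTL3 is the catalytic subunit of the complex that writes m6A, a mark that readers of the YTH family link to mRNA decay and to translation. In fat, the mark has been studied for its part in the making of beige adipocytes, which burn fuel for heat in the cold.

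The targeted gene, Mettl3, gave 3.83 and 1.90 RPKM in input under the cKO label, against 5.24 and 3.66 RPKM under the WT label. In footprints it stood at 8.99 and 5.22 RPKM in the libraries labelled cKO and at 4.60 and 4.82 RPKM in those labelled WT. The input values of the labelled genotypes overlapped, and the footprint values were higher under the cKO label. Mettl3 was below the ranking limit and rested on 17 and 12 footprint reads. The values do not show where in the gene the reads lie, and the libraries are called by their labels throughout.

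The inputs labelled cKO were scaled to 4512303 and 3895648 reads and the footprints to 2173985 and 2641828 reads. Single genes took large shares. Gm20594, a predicted gene, held 7.27% and 5.70% of the footprint reads labelled cKO and 8.43% and 18.0% of those labelled WT. Under the cKO label Lars2 held 402200 and 331900 input reads and 1405000 and 1366000 m6A reads. These m6A libraries were scaled to 5062366 and 5304666 reads. The adipocyte marker list was present in every cold library, with all 10 genes above 0. Its summed level was 8882 and 10173 RPKM in input and 48146 and 38961 RPKM in footprints (labelled cKO, replicates 1 and 2). Fabp4 alone gave 5316 and 6089 RPKM of these input sums and 41340 and 28990 RPKM of the footprint sums.

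Markers of other cells did not keep the same balance between input and footprints. The 12 markers of T and B cells summed to 9.96 and 6.65 RPKM in input, with Cd3e and Cd3g at 0 in replicate 1 and Cd79a and Ms4a1 among those at 0 in replicate 2. In footprints the same 12 summed to 1135 and 381 RPKM with none at 0. Cd3e, a chain of the T cell receptor complex, stood at 0 and 1.05 RPKM in input against 144 and 68.1 RPKM in footprints. Cd79a, which signals for the B cell receptor, stood at 1.06 and 0 RPKM in input against 270 and 68.8 RPKM in footprints. In the libraries labelled WT the list summed to 1.82 and 2.03 RPKM in input and to 536 and 385 RPKM in footprints. None of these genes reached the ranking.

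Macrophage markers summed to 1627 and 739 RPKM in input and to 9428 and 4998 RPKM in footprints under the cKO label, against 204 and 201 RPKM and 3409 and 4151 RPKM under the WT label. The 12 skeletal muscle markers separated the replicates. They summed to 29.3 and 241 RPKM in input, to 10.8 and 383 RPKM in m6A, and to 565 and 51.0 RPKM in footprints (replicates 1 and 2). Tnnc2, a troponin of fast muscle, stood at 0.317 and 22.4 RPKM in input against 109 and 2.37 RPKM in footprints. The muscle-rich libraries were therefore replicate 2 for input and m6A and replicate 1 for footprints. The part of these cell type levels in the ratios below was not tested. In bulk tissue, fewer cells of a type and less RNA per cell cannot be told apart.

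**Figure D1:**
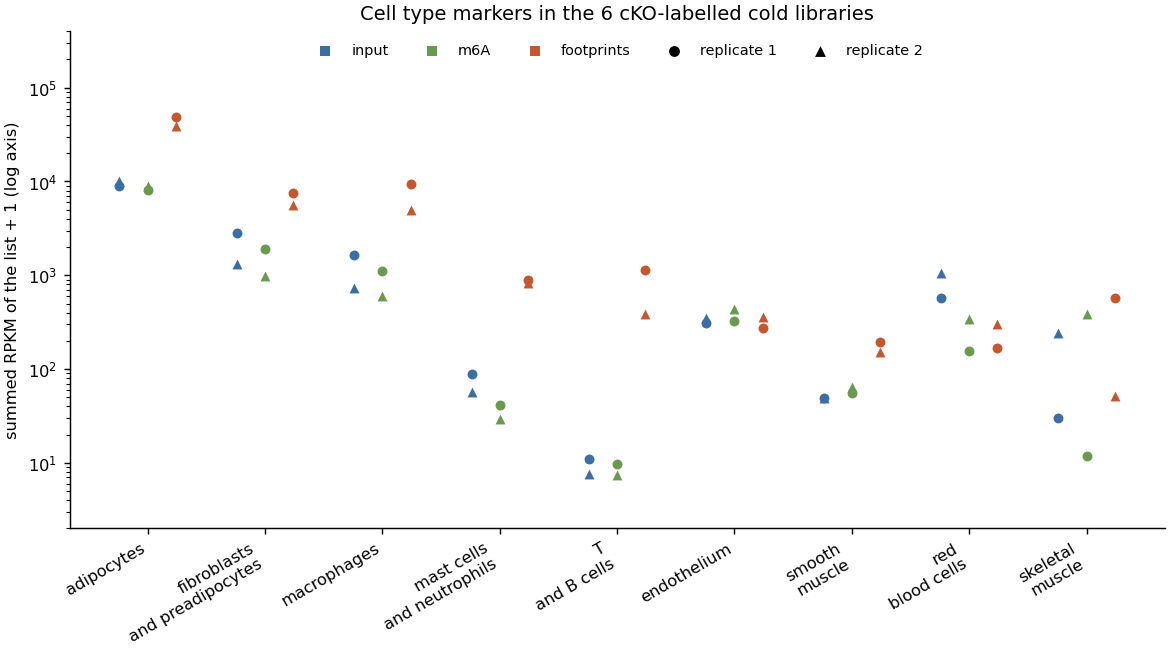
Summed RPKM + 1 of each cell type marker list (log axis) in the 6 cold libraries labelled cKO, by kind of library (colour) and replicate (shape). T and B cell markers sum to 9.96 and 6.65 RPKM in input and to 1135 and 381 RPKM in footprints, and the skeletal muscle list is high in input and m6A replicate 2 and in footprint replicate 1.

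Ratios over the 7557 ranked genes had a median of 0.71, with quartiles at -0.26 and 1.60 and 5% of genes below -1.77 and above 2.93. The ratios of replicates 1 and 2 differed by a median of 0.34 and, for 95% of genes, by at most 1.11. Across genes the replicate ratios had a Pearson's r of 0.929 (7557 genes, which are not independent and share each library's depth). Both replicates lay on the same side of their own median for 6669 genes (88.2%). Errors given below are standard errors from limma with n = 2 libraries per group, and their median over the ranked genes was 0.29.

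Against a ratio of 0 on the deposited scale, 3561 ranked genes (47.1%) were higher in footprints and 1114 (14.7%) lower (limma, Benjamini-Hochberg adjusted p under 0.05 over 12763 genes tested). The deposited scale gives 0 no fixed meaning, because footprint RPKM were divided by another gene length than input RPKM. Against the median ranked gene, which shifts every ratio by 0.72, 2116 genes (28.0%) stood above and 2170 (28.7%) below. Calls in what follows are against the median gene unless the sentence says otherwise, and ratios and their adjusted p-values are on the deposited scale.

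**Figure D2:**
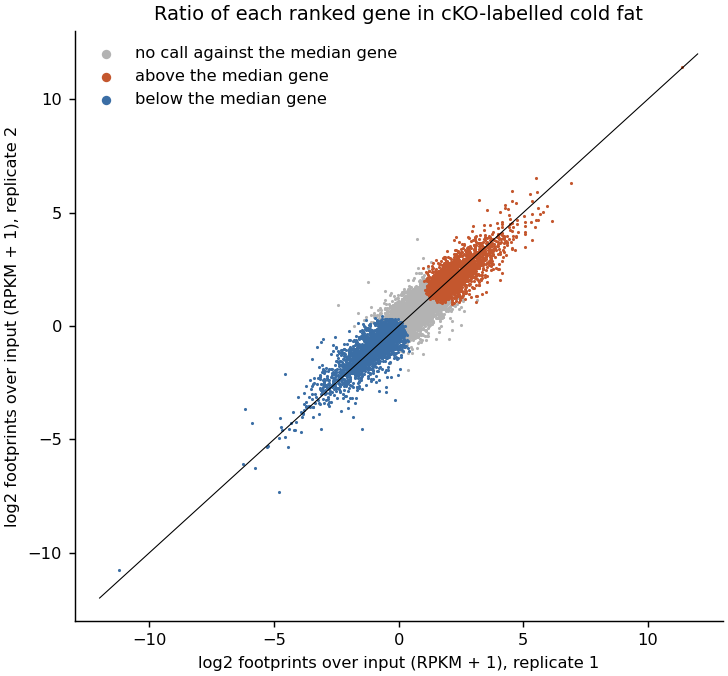
The log2 ratio of footprints to input (RPKM + 1) of each of the 7557 ranked genes in replicate 1 (horizontal) and replicate 2 (vertical), with the line of equal values. Coloured genes are the 2116 above and 2170 below the median gene, and the replicate ratios lie along the line with r = 0.929.

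The 12 highest genes had coding lengths from 111 to 480 bases. Gm20594 was at 245 and 184 RPKM in input against 645300 and 506100 RPKM in footprints, a ratio of 11.39 ± 0.54. Where in Gm20594 these reads lie is not shown, so its ratio need not describe ribosome load on an mRNA. Atp5md, a small subunit of ATP synthase, was at 16.8 and 18.5 RPKM in input against 2147 and 1564 RPKM in footprints, a ratio of 6.62 ± 0.37 (limma adjusted p = 8.39e-06). Slirp, an RNA-binding protein that protects mitochondrial mRNAs, was at 5.09 and 5.23 RPKM in input against 278 and 579 RPKM in footprints (6.03 ± 0.33). These genes were chosen by these values, which are given as a description.

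Ndufab1, the acyl carrier protein of mitochondria and a complex I subunit, had a ratio of 5.74 ± 0.23 on 834 and 1188 footprint reads. It stood at 16.2 and 15.1 RPKM in input against 820 and 961 RPKM in footprints. Mtln, which encodes the micropeptide mitoregulin, stood at 8.03 and 7.70 RPKM in input against 211 and 536 RPKM in footprints (5.25 ± 0.41). Eif1ax, an initiation factor that helps the ribosome find the start codon, had a ratio of 5.32 ± 0.28, and Rps15a, a protein of the small ribosomal subunit, had 5.54 ± 0.39.

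Sub1, a transcription coactivator, stood at 8.54 and 6.55 RPKM in input against 392 and 346 RPKM in footprints (5.44 ± 0.27). Dad1, a subunit of the enzyme that attaches sugar chains to nascent proteins, stood at 5.78 and 9.19 RPKM in input against 326 and 374 RPKM in footprints (5.40 ± 0.25). Plaat3, a phospholipase abundant in adipocytes, had a ratio of 5.41 ± 0.28. S100a13, a calcium-binding protein, had 5.40 ± 0.34, and Gm9844, a predicted gene, had 5.63 ± 0.44. All 12 of these genes were also higher in footprints than in input in the libraries labelled WT (limma, deposited scale).

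The lengths behind these values differ between the library kinds. Slirp has a listed transcript of 2701 bases behind its input RPKM and a coding length of 336 bases behind its footprint RPKM, and Atp5md has 2733 and 174 bases. The 100 genes with the highest ratios had a median coding length of 382.5 bases in a median transcript of 1924 bases, against 1374 and 2958 bases over all ranked genes. Their median input level was 15.6 RPKM, against 15.2 RPKM over all ranked genes, and their median footprint reads numbered 728, against 182. Ranked by reads with no length at all, 3 of the top 12 genes stayed within the top 12, namely Gm20594, S100a13 and Gm9844, and 8 within the top 100. Of the top 100 genes 41 stayed within the top 100.

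**Figure D3:**
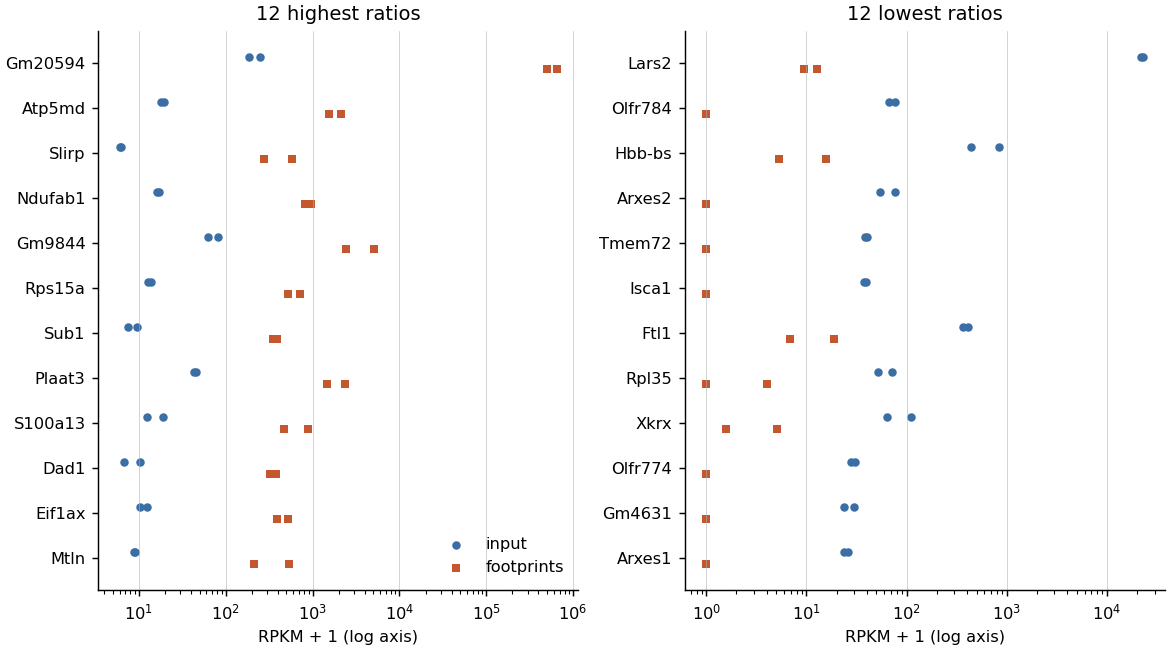
RPKM + 1 on a log axis in both input (circles) and both footprint libraries (squares) labelled cKO, for the 12 genes with the highest ratios (left) and the 12 with the lowest (right) among those that passed the test. The genes were chosen by these values; 7 of the genes on the right are listed at 0 in both footprint libraries and sit at 1 on the axis.

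At the bottom of the ranking stood Lars2, the leucyl-tRNA synthetase of mitochondria. It was at 22890 and 21880 RPKM in input against 8.50 and 11.6 RPKM in footprints, a ratio of -11.00 ± 0.30 (limma adjusted p = 5.90e-07). Its reads numbered 402200 and 331900 in input and 50 and 83 in footprints. The values do not show where in Lars2 the reads lie, so this ratio need not describe its mRNA. Hbb-bs, a beta globin of red blood cells, was at 435 and 833 RPKM in input against 14.6 and 4.29 RPKM in footprints (-6.05 ± 0.50). Hba-a1, another red blood cell marker, went the other way, at 45.3 and 59.1 RPKM in input against 92.9 and 175.9 RPKM in footprints. Of the 5 ranked red blood cell markers 2 stood below the median gene and 0 above, with a median of 0.25. Ftl1, the ferritin light chain that stores iron and whose mRNA is held back by iron regulatory proteins, was at 407 and 363 RPKM in input against 5.87 and 17.9 RPKM in footprints (-5.08 ± 0.41).

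Rpl35, a protein of the large ribosomal subunit, had 0 and 3 footprint reads, against 71.0 and 50.7 RPKM in input (-4.92 ± 0.63). Xkrx, a membrane protein of the XK family, had 12 and 2 footprint reads, against 110 and 63.0 RPKM in input (-4.90 ± 0.75). Isca1, which helps assemble iron-sulfur clusters, stood at 36.5 and 38.6 RPKM in input and had 0 reads in both footprint libraries. With a floor of 3 footprint reads over both libraries, its footprint level was at least 23.3-fold lower than its input level.

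The other 6 of the lowest 12 were listed at 0 in all 4 footprint libraries, of either label. Arxes2 and Arxes1, a pair of near-identical genes of adipocytes on the X chromosome, stood at 53.7 and 75.4 RPKM and at 24.97 and 22.8 RPKM in input. Olfr784 and Olfr774 are listed as olfactory receptor genes and stood at 75.03 and 66.3 RPKM and at 26.8 and 29.3 RPKM in input. Tmem72, a transmembrane protein, and Gm4631, a predicted gene, complete the set. No coding length was recovered for these 6 genes, so no bound is given, and a fitted ratio against 0 depends on the added 1 RPKM. Whether they were counted in footprints at all is not given in the sources used here, so a listed 0 does not show an absence of ribosomes. Of all ranked genes 43 were listed at 0 in both footprint libraries, and 39 of them lay in the lowest 100.

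Globin, ferritin and ribosomal protein genes have near-identical copies in the mouse genome. How reads that match several places were counted is not given in the sources used here, so the values of these genes and of the Arxes pair are uncertain. The lowest 100 genes had a median of 3 footprint reads and 582.5 input reads. All of the lowest 12 genes were lower in footprints in the libraries labelled WT as well. Ranked by reads with no length, 7 of the lowest 12 stayed within the lowest 12 and 67 of the lowest 100 within the lowest 100.

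The ratio was lower the longer the coding sequence. In 5 equal groups of ranked genes by coding length, the median ratio was 1.73 in the shortest group (51 to 708 bases), then 1.24, 0.81 and 0.39, and -0.43 in the longest group (2589 to 26397 bases). The libraries labelled WT gave 1.78, 1.27, 0.83, 0.39 and -0.44. With reads scaled to depth and no length, centred on the median gene, the medians were 0.60, 0.44, 0.19, -0.07 and -0.59 in the same order. The order of the groups was the same with and without lengths, and the end groups lay closer together without them. Grouped instead by the coding share of the transcript, the direction turned. From the lowest to the highest share the medians went from 1.345 to 0.18 with lengths and from -0.45 to 0.33 without. Across 7517 genes the ratio and log2 coding length had a Pearson's r of -0.524, a description over genes of the same 4 libraries.

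**Figure D4:**
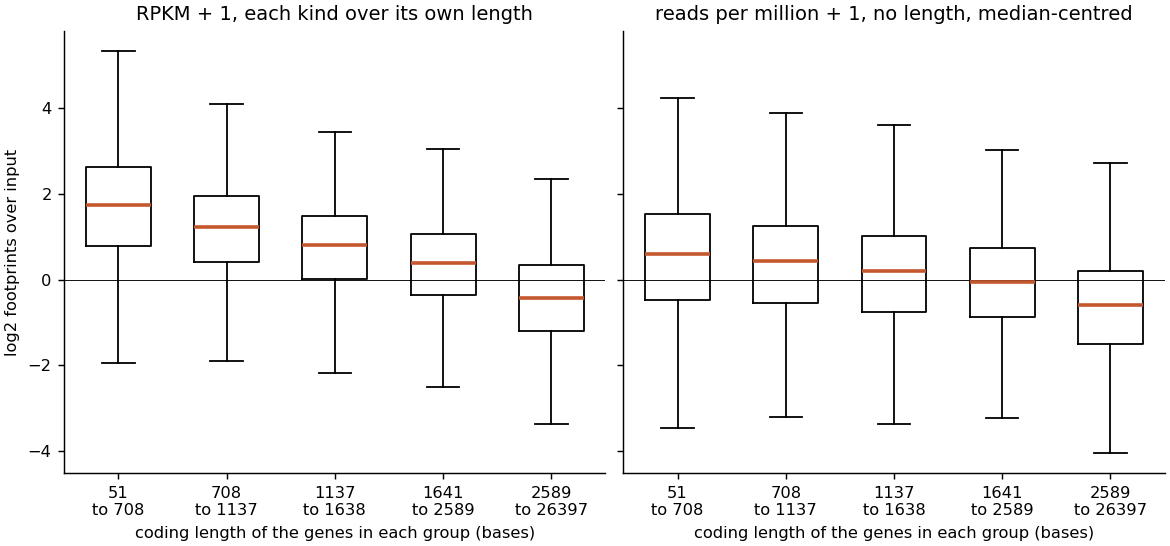
Log2 ratio of footprints to input in 5 equal groups of ranked genes by coding length, from RPKM + 1 with the length of each library kind (left) and from depth-scaled reads with no length, centred on the median gene (right). Lines are medians, boxes quartiles and whiskers reach to the last gene within 1.5 box heights; the medians go from 1.73 to -0.43 on the left and from 0.60 to -0.59 on the right.

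Gene groups of energy metabolism stood high as groups. Of 80 ranked subunits of the respiratory chain that are encoded in the nucleus, 70 stood above the median gene and 0 below, with a median ratio of 2.55. That list had a median coding length of 409.5 bases, within the shortest length group, where the median ratio over all genes was 1.73. Its highest members were Atp5md and Ndufab1, and its lowest Cox6a1, a subunit of cytochrome oxidase (0.36 ± 0.24), and Ndufa4l2, a relative of a complex IV subunit (0.21 ± 0.71 on 3 and 18 footprint reads). Of 33 enzymes of fatty acid oxidation and the TCA cycle, 24 stood above and 0 below, with a median of 1.66. Decr1, which handles unsaturated fatty acids, stood at 66.1 and 73.5 RPKM in input against 579 and 640 RPKM in footprints (3.11 ± 0.25). Mdh1, the cytosolic malate dehydrogenase, had a ratio of 2.83 ± 0.22, whereas Idh3b, a subunit of isocitrate dehydrogenase, had 0.25 ± 0.24. Without lengths the counts were 71 higher and 0 lower of 80 and 30 higher and 0 lower of 33.

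Of the 10 ranked mRNAs that mitochondrial DNA encodes, 6 stood below the median gene and 0 above. Their median was -1.46, against 2.55 for the nuclear-encoded subunits. Without lengths, 2 of the 10 were higher and 4 lower. mt-Nd1, a core subunit of complex I, was at 8679 and 9974 RPKM in input against 628 and 764 RPKM in footprints (-3.75 ± 0.46). mt-Atp6 was at 10040 and 10230 RPKM in input against 1628 and 1878 RPKM in footprints (-2.54 ± 0.43). As background, these mRNAs are translated by ribosomes of the mitochondria and not by those of the cytosol. The other 4 had ratios above 0, namely mt-Atp8, mt-Nd3 (1.501 ± 0.35), mt-Co2 (0.37 ± 0.45) and mt-Nd6 (0.30 ± 0.53). With lengths, none of these passed against the median gene. mt-Atp8, the small ATP synthase subunit whose reading frame overlaps that of mt-Atp6, had 6320 and 7060 RPKM in input. In footprints it had 30240 and 18380 RPKM (1.82 ± 0.51). Without lengths, centred on the median gene, its value was 2.16 (limma adjusted p = 0.00104). Its call on the deposited scale was lost without any 1 of the 4 inputs (limma adjusted p = 0.0606 to 0.082).

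The proteasome, which degrades tagged proteins, had most of its subunits above the median gene. Of 36 ranked, 29 stood above and 0 below, with a median of 2.15. Psmb8, a catalytic subunit of the immunoproteasome, stood at 12.4 and 9.14 RPKM in input against 222 and 127 RPKM in footprints (3.86 ± 0.32). Psma2, a subunit of the outer ring, had a ratio of 3.75 ± 0.26, and at the other end Psmb6, a catalytic subunit, had 0.31 ± 0.21. The summed immune marker levels were also higher in footprints than in input, as were those of adipocytes, fibroblasts and smooth muscle. Those of red blood cells were lower, and those of endothelium and skeletal muscle differed in direction between replicates. The part of these levels in the proteasome ratios was not tested.

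Ribosomal proteins had members far above and far below the median gene. Of 79 ranked, 44 stood above the median gene and 9 below, with a median of 1.81 and ratios from -4.92 (Rpl35) to 5.54 (Rps15a). Rps20 of the small subunit stood at 25 and 25.9 RPKM in input against 563 and 807 RPKM in footprints (4.67 ± 0.35). Rpl29 of the large subunit stood at 413 and 398 RPKM in input against 14.4 and 22.9 RPKM in footprints (-4.41 ± 0.25). Input and footprint levels were thus ordered in opposite ways in Rps20 and Rpl29. Of 68 mitochondrial ribosomal proteins 36 stood above and 1 below (Mrpl42, -0.13 ± 0.20), with a median of 1.62, led by Mrpl17 (5.07 ± 0.33). Median coding lengths were 453 bases for the cytosolic and 568.5 bases for the mitochondrial list. Both lie within the shortest of the 5 length groups, where the median ratio over all genes was 1.73.

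Ribosomal protein mRNAs are known to begin with a C followed by a run of pyrimidines, the 5′ terminal oligopyrimidine tract, through which the mTOR pathway sets their translation. The RefSeq promoter table (GRCm38.p6) held 59 of the 79 ranked genes, and 12 of these (20.3%) have a C at the annotated start followed by at least 4 bases that are C or T, read on the strand of the gene. The share was 3.2% of 6035 matched ranked genes and 2.5% of all 32851 entries. A gene was counted if any of its entries had a tract, whereas the last share is per entry. The 12 genes had a median ratio of 1.70 and the other 47 a median of 1.87. The first 24 bases from the annotated start are shown for the 2 genes with a tract at each end of the ratios, with the tract in capitals.
Rps15a: CTTCCCTCgccggtgagtgagtgt
Rpl35a: CTCTTTCCgccatcttggcgcctg
Rps18: CTCTCTTCCacaggaggcctacac
Rpl35: CTCTTTCTCTCgaaccaggctgct
Rps15a starts at chr7:118116124-118116147 (minus strand), Rpl35a at chr16:33056482-33056505 (plus strand), Rps18 at chr17:33955642-33955665 (minus strand) and Rpl35 at chr2:39005108-39005131 (minus strand). Their ratios were 5.54, 3.81, -2.21 and -4.92, so tracts of 8 to 11 bases stood at both ends of the ribosomal protein ratios. A match is a description of the annotated start and not of the start used in these cells.

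The list of elongation factors and other mRNAs known for such tracts had 12 of 21 above the median gene and 1 below, at a median of 1.73. By the same search 4 of its 15 matched genes (26.7%) have a tract at the annotated start. Eif3k, a subunit of initiation factor 3, had a ratio of 2.88 ± 0.24, and Nap1l1, a histone chaperone, had 2.86 ± 0.25. The lowest were Eef2, the factor that moves the ribosome along (0.02 ± 0.57), and Pabpc1, the poly(A)-binding protein (-0.64 ± 0.47). Eef2 stood at 406 and 392 RPKM in input against 289 and 566 RPKM in footprints, so its 2 footprint libraries lay on either side of the inputs.

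**Figure D5:**
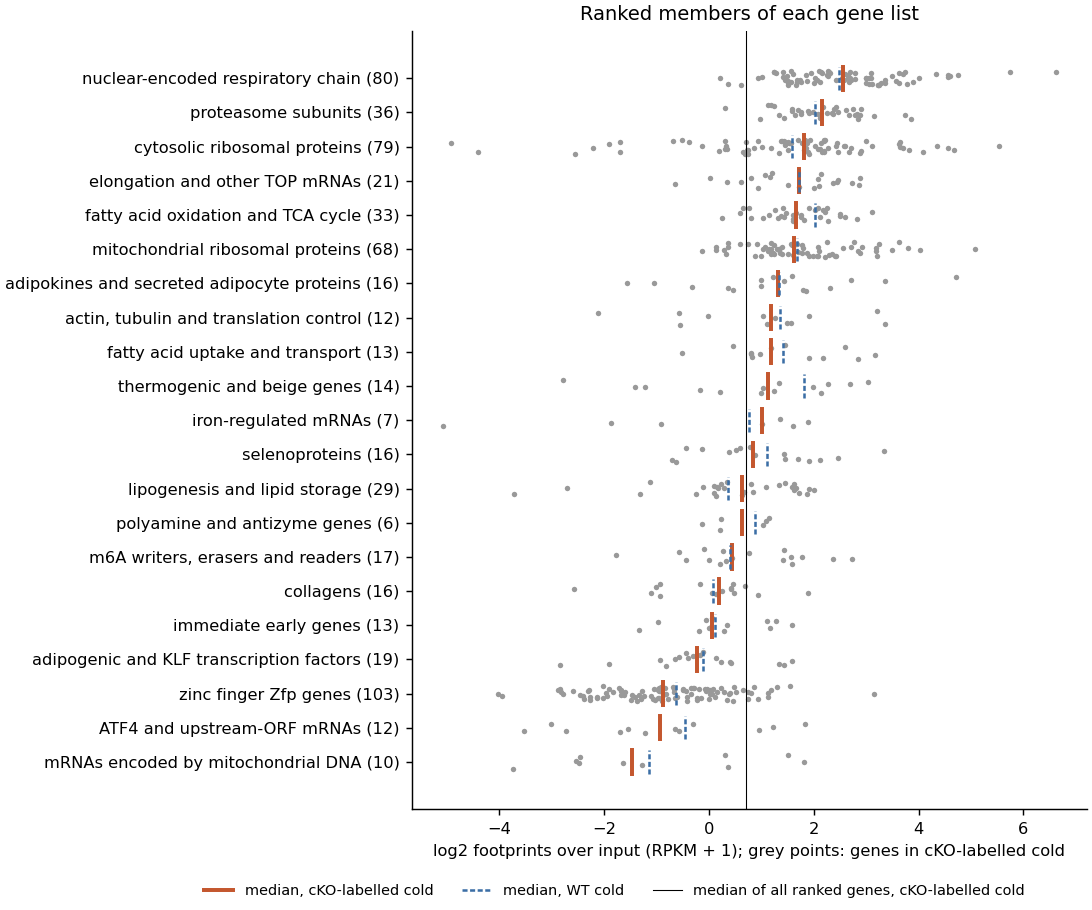
Log2 ratio of footprints to input of every ranked member (grey points, libraries labelled cKO) of the lists with at least 6 ranked genes, with the list median under the cKO label (solid bar) and the WT label (dashed bar). The thin line is the median of all ranked genes, 0.71; list medians go from 2.55 for the nuclear-encoded respiratory chain to -1.46 for mRNAs of mitochondrial DNA.

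Most Zfp genes stood below the median gene. Of 103 ranked Zfp zinc finger genes, a family of mostly DNA-binding proteins, 76 stood below the median gene and 1 above, with a median of -0.87. The gene above was Zfp706, a small zinc finger protein, at 12.5 and 17.8 RPKM in input and 141 and 141 RPKM in footprints (3.15 ± 0.27). Without lengths its value was -0.65, as its transcript has 4417 bases and its coding sequence 228. Of 19 adipogenic and KLF transcription factors 10 stood below and 1 above, with a median of -0.23. Zfp423, a regulator of preadipocyte commitment, stood at 25.5 and 23.4 RPKM in input against 2.26 and 2.83 RPKM in footprints (-2.85 ± 0.32). Rxra, the partner of nuclear receptors such as PPARG, had -1.91 ± 0.21. Klf3, a Kruppel-like repressor, was the member above, with 1.58 ± 0.24.

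Klf9, the Kruppel-like factor the series is about, stood at 38.6 and 32.0 RPKM in input against 16.3 and 19.7 RPKM in footprints under the cKO label. Its ratio was -0.93 ± 0.38, which did not pass on the deposited scale (limma adjusted p = 0.0657; 0.0073 with same-numbered libraries paired by a replicate block) and lay below the median gene at -1.65 when centred (limma adjusted p = 0.0108). Its footprints numbered 26 and 38 reads, against 782 and 559 reads in input. Under the WT label Klf9 stood at 28.8 and 48.0 RPKM in input against 10.4 and 23.6 RPKM in footprints, and the difference of the ratios was 0.26 (limma adjusted p = 1.00).

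Genes known for control by upstream reading frames stood low as a group. Of 12 ranked 9 stood below the median gene and 0 above, with a median of -0.93. Slc35a4, a nucleotide sugar transporter family member with a translated upstream frame, stood at 25.3 and 36.2 RPKM in input against 1.89 and 1.56 RPKM in footprints (-3.53 ± 0.29 on 4 and 4 reads). Atf5, a transcription factor of the stress response, stood at 41.1 and 53.7 RPKM in input against 7.58 and 3.12 RPKM in footprints (-3.01 ± 0.52). Asns, asparagine synthetase and a target of ATF4 rather than a gene with such a frame, had 1.23 ± 0.28, and Ifrd1, which also has an upstream frame, 1.83 ± 0.47. Reads in upstream frames cannot be seen in these values, which hold 1 number per gene.

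Iron-regulated mRNAs split by gene. Of 7 ranked 2 stood above the median gene and 3 below. Tfrc, the transferrin receptor that takes iron up, stood at 15.7 and 10.0 RPKM in input against 48.0 and 50.1 RPKM in footprints (1.88 ± 0.43). At the other end, the ratio was -5.08 for Ftl1 and -1.87 ± 0.26 for the kinase Cdc42bpa. Fth1, the ferritin heavy chain, is in the same list and had a ratio of 1.01 under the cKO label and 0.77 under the WT label. Selenoproteins lay near all genes, with 6 of 16 above and 3 below, from Selenok of the endoplasmic reticulum (3.33 ± 0.29) to Selenop, the selenium carrier of plasma (-0.71 ± 0.32).

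Adipocyte genes did not move as 1 group. Of 29 ranked genes of lipogenesis and lipid storage 6 stood above and 4 below the median gene, with a median of 0.64. Plin2, a coat protein of lipid droplets, stood at 469 and 484 RPKM in input against 1817 and 1767 RPKM in footprints (1.91 ± 0.25). Plin4, a coat protein of the same family, stood at 128 and 121 RPKM in input against 10.8 and 6.62 RPKM in footprints (-3.73 ± 0.31). Mlxipl, which encodes the carbohydrate-responsive factor ChREBP, had -2.71 ± 0.34. These 2 perilipins stood on opposite sides of the median gene.

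Among 16 adipokines and secreted proteins 6 stood above and 2 below, led by Apoc1, an apolipoprotein (4.71 ± 0.28). Retn, the hormone resistin, stood at 112 and 63.3 RPKM in input against 767 and 991 RPKM in footprints (3.36 ± 0.33). Vegfa, the growth factor of blood vessels, had -1.04 ± 0.36 and Nrg4, a secreted factor of brown fat, had -1.57 ± 0.45 on 4 and 4 footprint reads. Of 13 genes of fatty acid uptake 6 stood above and 1 below, from Cav2, a caveolin (3.18 ± 0.35), to Slc27a1, a fatty acid transporter (-0.52 ± 0.26).

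Of 26 thermogenic and beige genes 14 were ranked, with 3 above and 4 below the median gene. Ucp1, the uncoupling protein of thermogenic fat, stood at 76.3 and 10.0 RPKM in input against 149 and 88.4 RPKM in footprints under the cKO label. Its ratio of 1.99 ± 0.74 passed on the deposited scale (limma adjusted p = 0.0461) but not against the median gene (limma adjusted p = 0.169). Gk, glycerol kinase, had 3.04 ± 0.36 and Cox7a1, a cytochrome oxidase subunit, 2.69 ± 0.31. Kcnk3, a potassium channel of brown fat, had -2.78 ± 0.45, and Adrb3, the adrenergic receptor of adipocytes, -1.42 ± 0.39.

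Collagens and immediate early genes lay below or near the median gene. Of 16 ranked collagens 1 stood above (Col14a1, 1.89 ± 0.35) and 5 below, among them Col27a1 (-2.57 ± 0.31 on 0 and 3 footprint reads). The collagens had a median ratio of 0.19 and a median coding length of 4749 bases. That lies within the longest length group, where the median ratio over all genes was -0.43. Without lengths 1 collagen was higher and 3 were lower, with a median of 0.09. Of 13 immediate early genes 0 stood above and 1 below, namely Jund, an AP-1 subunit (-1.33 ± 0.41). Of 12 ranked genes made up of actins, tubulins, Gapdh, Ppia, B2m and Hprt, 4 stood above and 3 below. The figure of gene lists labels them actin, tubulin and translation control. Gapdh, the glycolytic enzyme with many processed copies, stood at 519 and 785 RPKM in input against 102 and 208 RPKM in footprints (-2.12 ± 0.39), and Ppia, cyclophilin A, had 3.36 ± 0.26. The writers, erasers and readers of m6A had 5 of 17 above and 3 below, from Hnrnpc, a reader (2.73 ± 0.31), to Rbm15b, an adaptor of the writer complex (-1.77 ± 0.32). Of 6 polyamine genes 0 stood above and 1 below, namely Odc1, which makes putrescine (-0.14 ± 0.26).

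Among 36 long noncoding RNAs only Snhg11 was found in the matrix by name, at 6.20 and 9.98 RPKM in input. It is listed at 0 in footprints with no coding length recovered, which does not show an absence of ribosomes. No replication-dependent histone gene reached the ranking. Of the 11 ranked macrophage markers 5 stood above the median gene and 0 below. Lyz2, the lysozyme of macrophages, stood at 664 and 255 RPKM in input against 5711 and 3003 RPKM in footprints (3.33 ± 0.47). All 4 ranked mast cell and neutrophil markers stood above, with a median of 3.30.

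Set beside the libraries labelled WT, the ratios were alike in rank. Across the 7557 genes the ratios under both labels had a Pearson's r of 0.955 (no library is shared), and 70 of the top 100 and 68 of the lowest 100 genes under the cKO label were in the same 100 under the WT label. The difference of the ratios, cKO cold minus WT cold, passed for 0 ranked genes in either direction (0.0% and 0.0%, limma). At an unadjusted p under 0.05 there were 219 of 7557 ranked genes and 459 of 12763 tested, and the smallest adjusted p was 0.111. The median difference was -0.003 and 90% of ranked genes lay between -0.79 and 0.60, with a median standard error of 0.41. A difference that misses the threshold does not show that the ratios are alike.

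Some genes named above had wide differences that did not pass. Plin4 stood at 10.8 and 6.62 RPKM in footprints under the cKO label and at 49.1 and 50.5 RPKM under the WT label, with input at 128 and 121 RPKM and at 177 and 308 RPKM. Its difference of the ratios was -1.52 (limma, unadjusted p = 0.00698 and adjusted p = 1.00), and neither input nor footprint values of the labels overlapped. Isca1 had 0 footprint reads under the cKO label and stood at 2.07 and 2.71 RPKM in footprints under the WT label, where its input was 44.3 and 39.9 RPKM. Atf5 stood at 8.95 and 29.6 RPKM in footprints under the WT label, and its difference was -1.63 (limma adjusted p = 1.00). Lyz2 had a difference of -1.93 (limma, unadjusted p = 0.0177), and its input was 78.8 and 62.1 RPKM under the WT label. Macrophage markers as a list were also higher in input under the cKO label, and their part in this was not tested.

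The m6A ratio, m6A over input in the same RPKM + 1 form, was set beside the footprint ratio. Both ratios share the inputs labelled cKO as denominator, so their values are given side by side and no relation between them was tested. Of the 7557 ranked genes 937 (12.4%) were higher in m6A than in input and 3564 (47.2%) lower (limma). Here too 0 has no fixed meaning, because values are scaled to each library's depth. Lars2 alone held 1405000 and 1366000 m6A reads, against 402200 and 331900 input reads. The m6A ratios were not fitted again without it. Against the median gene 1692 (22.4%) stood above and 2324 (30.8%) below. The median m6A ratio was -0.49.

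From the highest to the lowest of 5 equal groups by footprint ratio, the median m6A ratio was -0.89, -0.73, -0.55, -0.33 and -0.005. The share of genes higher in m6A was 6.1%, 8.3%, 10.2%, 13.8% and 23.7% in the same order. Median transcript length went from 2003 to 4308 bases over the same groups.

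The 5 genes with the highest m6A ratios had footprint ratios between -0.13 (Gpatch4) and 1.85 (Anp32b). Hmgn5, a nucleosome-binding protein, stood at 10.4 and 12.1 RPKM in input, at 200 and 208 RPKM in m6A and at 11.7 and 13.7 RPKM in footprints. Its m6A ratio was 4.07 ± 0.15 (limma adjusted p = 7.82e-07) and its footprint ratio 0.16 ± 0.26. Prpf38b, a splicing factor, stood at 18.2 and 15.1 RPKM in input, at 252 and 237 RPKM in m6A and at 22.4 and 17.9 RPKM in footprints. Anp32b, a nuclear histone chaperone, had an m6A ratio of 3.26 ± 0.12 and a footprint ratio of 1.85 ± 0.25. Gpatch4, a nucleolar RNA-binding protein, and Basp1, a membrane-bound signal protein, had m6A ratios of 2.96 and 2.67.

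The lowest m6A ratios lay at both ends of the footprint ranking. Prdx1, a peroxidase that clears hydrogen peroxide, stood at 80.3 and 74.8 RPKM in input, at 3.36 and 5.01 RPKM in m6A and at 1784 and 2021 RPKM in footprints. Its m6A ratio was -3.94 ± 0.16 and its footprint ratio 4.60 ± 0.22. Tmem38b, a cation channel of the endoplasmic reticulum, stood at 252 and 182 RPKM in input, at 5.52 and 4.48 RPKM in m6A and at 21.0 and 25.5 RPKM in footprints, low in both. Xkrx (m6A ratio -5.91 ± 0.57) and Rnf225, a RING finger gene (-4.02), were low in both as well, with 12 and 2 footprint reads for Xkrx and a listed 0 with no coding length for Rnf225. Rpl30 of the large ribosomal subunit had -3.47 ± 0.30 in m6A and 2.45 ± 0.39 in footprints.

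By list, fatty acid oxidation and the TCA cycle had 28 of 33 genes below the median gene in m6A and 0 above, with a median m6A ratio of -1.19 beside its footprint median of 1.66. The nuclear-encoded respiratory chain had 50 of 80 below and 8 above (-1.17 beside 2.55), and ribosomal proteins 49 of 79 below and 9 above (-1.28 beside 1.81). Zfp genes had 44 of 103 above and 12 below (-0.02 beside -0.87). Adipogenic and KLF factors had 10 of 19 above and 1 below (0.08 beside -0.23), and immediate early genes 7 of 13 above and 0 below (1.05 beside 0.05). Klf9 itself had an m6A ratio of 0.08 ± 0.30, which did not pass (limma adjusted p = 0.857). Lars2, which had the lowest footprint ratio, was at 71270 and 66120 RPKM in m6A, a ratio of 1.62 ± 0.27. Where in the gene these reads lie is likewise not shown.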

How the data were processed

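Values were the RPKM the authors deposited, in 1 matrix of 17883 genes and 16 libraries; the aligner HISAT2 and the build mm10 are given per the submitters' processing notes, and the counting tool and annotation are not given in the sources used here. All sample columns were used (0 left out). The reference table held 17871 of the gene identifiers and gave back 25 symbols stored as dates. Low values move in steps of 1 read, from which reads and lengths were recovered (99.99% of genes in input and m6A and 100.0% in footprints whole, within 0.001 read plus 3e-08 of the reads). Input and m6A values rest on 1 length per gene with a median of 2928 bases, taken as the transcript. Footprint values rest on another length in steps of 3 bases, taken as the coding sequence, with a median of 1365 bases; the step was set by the 10 mitochondrial mRNAs, whose lengths are 3.005 to 3.045 times their number of steps. A coding length can be too short by a whole factor where few reads share a divisor.

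The test was that of limma 3.58.1 (R 4.3.3) on log2(RPKM + 1), two-sided (Benjamini-Hochberg over all genes tested, threshold 0.05), over genes that reached 1 RPKM in 2 or more of the fitted libraries. Footprints over input, and its difference between labels as an interaction, came from 1 model of the 8 cold libraries of these kinds (4 residual degrees of freedom), and m6A over input from 1 model of 12 libraries (6). A fit was also run on simulated data with equal input and footprint means, apart from a set of changed genes. That run left out the trend of spread with level that the fit here uses, so it does not test the fit as used. The added 1 RPKM shrinks the ratios of low genes. Named genes are the 12 highest and 12 lowest ratios that passed, Mettl3 and Klf9, the 2 highest and 2 lowest of each of 23 lists, and the 5 highest and 5 lowest m6A ratios that passed (likewise for the difference between labels, where none passed); other genes named were chosen after their values were seen. A few genes the rule names are not reported here. The members and lists were chosen with earlier results of these data known, and no test was made over a list. Floors and read numbers cover counting error only. Figures were drawn with Python 3.11.15 and matplotlib 3.10.9.

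Same-numbered libraries deviated together from their group means over 8464 genes, with correlations of 0.337 and 0.333 between input and footprints (cKO and WT cold) and of 0.305, 0.656 and 0.484 between input and m6A (WT RT, WT cold, cKO cold). The pairing was read from these correlations, as no label states it, and the skeletal muscle markers ran against it in the cKO footprints.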

Additional observations from a re-analysis of the deposited data

How the results depend on the processing

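Of the 7557 ranked genes 3561 were higher and 1114 lower in footprints on the deposited scale; centring on the median gene gave 2116 and 2170, quantile scaling 1398 and 2463, and reads without length 2276 and 2005 (the last chosen after seeing the data). Ranking from 20 RPKM, which leaves 2489 genes, gave 1411 and 352. Leaving out each library in turn gave 2859 to 3625 higher and 755 to 1172 lower, and against the median gene, a choice made after seeing the data, 1606 to 2144 above and 1577 to 2215 below. With the replicate block, which pairs same-numbered libraries, the counts were 3863 and 1262, against the median gene 2374 and 2384, and for m6A 1306 and 4199; it moved no count by over 1.5 times. For m6A over input, 937 higher and 3564 lower became 1692 and 2324 when centred and 1661 and 2357 with quantile scaling, and ran from 743 to 1003 and from 3036 to 3676 without each library. The difference between labels passed for 0 genes under every alternative run for it.

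Of 115 named genes 1 changed sides with both calls past the threshold: Psmd7, a proteasome subunit, had 0.98 on the deposited scale and -0.73 with quantile scaling. Among the named genes, quantile scaling ended 19 calls of the deposited scale and centring 12. The replicate block ended 0 and added 7, namely Klf9, Basp1, Col1a2, Dlst, Dusp1, Selenop and Tuba1b. Leaving out cKO cold input replicate 1 ended 10 calls of named genes on the deposited scale and replicate 2 ended 8, among them Vegfa and mt-Atp8; leaving out footprint replicate 1 or 2 ended 7 or 4. Without cKO cold footprint replicate 1, Adrb3 had -0.87 (limma adjusted p = 0.0786), and without cKO cold input replicate 1, -1.32 (limma adjusted p = 0.0724). The cause was not tested. Depth limits genes with few footprint reads: the lowest 100 ranked genes had a median of 3. Where a fit leaves 1 library in a group, that library is assumed to vary like the other groups.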
